A study of Mus musculus with 19 samples.

Results

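The 9 genes described here encode subunits or enzymes of the pyruvate dehydrogenase (PDH) complex and the tricarboxylic acid (TCA) cycle: Pdha1, Cs, Idh3a, Idh3b, Ogdh, Dlst, Suclg1, Fh1 and Mdh2. They were chosen by symbol, and 9 of 9 were found, once each, among the 53379 gene rows of the deposited count table. All 9 were also among the 18410 genes that passed the filter on low values. Transcripts were counted in 19 single mouse embryos 96 hours after in vitro fertilisation with B6D2F1 mice, cultured in KSOM medium. Sperm and oocytes of heterozygous mice were combined in 2 crosses, Alyref+/- with Alyref+/- and Gabpb1+/- with Gabpb1+/-. Alyref is an adaptor for the export of mRNA from the nucleus, and Gabpb1 is part of GABP, a transcription factor. From the Alyref cross came 8 embryos: 2 morulae labelled Alyref KO (Alyref-/-), 3 blastocysts and 3 morulae that were not KO. From the Gabpb1 cross came another 8: 3 morulae labelled Gabpb1 KO (Gabpb1-/-), 3 blastocysts and 2 morulae that were not KO. The last 3 embryos were blastocysts of wild-type (WT) parents. Non-KO embryos are WT or heterozygous, and the labels do not tell which. An embryo was labelled KO because its own RNA reads were missing over the deleted part of the gene, and no blastocyst was so labelled. All embryos were collected at the same age, so a morula was at an earlier stage than a blastocyst of that age.

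The PDH complex turns pyruvate into acetyl-CoA inside mitochondria and so feeds the TCA cycle, which oxidises acetyl-CoA and passes electrons to the respiratory chain. Preimplantation mouse embryos depend on pyruvate during early cleavage and take up more glucose as they form the blastocyst. GABP binds the ETS-type motif CCGGAAG through its Gabpa subunit, activates through its Gabpb subunit, and is known for its role at promoters of nuclear genes that encode mitochondrial proteins.

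The motif CCGGAAG was searched on both strands in promoter windows of RefSeq starts (assembly GRCm38.p6, from 250 bases before to 50 bases after the start). Windows were found for 8 of 9 members, and none was found for Idh3a. It was present in 2 of 8 members, Idh3b and Dlst, against 9.93% of the 27025 genes with a window and 8.86% of all 32851 windows. Both sequences are printed here because Idh3b carries the KO result described below, and Dlst is the other member with the motif. Each runs from 150 bases before to 15 bases after the start, in the direction of transcription, and capitals mark the motif, which is read there on the opposite strand as CTTCCGG. The Idh3b sequence lies at chr2:130284437-130284601 on the minus strand and the motif covers positions -5 to 2. The Dlst sequence lies at chr12:85110683-85110847 on the plus strand and the motif covers positions 2 to 8.
Idh3b: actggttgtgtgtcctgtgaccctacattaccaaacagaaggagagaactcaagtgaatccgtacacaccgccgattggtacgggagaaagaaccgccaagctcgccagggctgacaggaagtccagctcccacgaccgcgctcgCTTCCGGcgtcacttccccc
Dlst: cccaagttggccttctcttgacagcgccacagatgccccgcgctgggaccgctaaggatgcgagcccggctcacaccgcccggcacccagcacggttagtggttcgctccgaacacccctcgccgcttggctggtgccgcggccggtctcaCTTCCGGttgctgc
These are matches of letters, and binding was not measured.

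Total gene counts ran from 7.49 to 31.5 M per embryo (M, megacounts), with a median of 13.6 M. Levels are given as CPM, the counts per megacount of all genes after TMM scaling, or per length (FPKM) where genes are compared with each other. Alyref was 53.1 CPM in Alyref KO morulae and 221 CPM in non-KO morulae of the cross (log2 fold change -2.05, adjusted p = 0.0227). Gabpb1 went against its label: it was 163 CPM in morulae labelled Gabpb1 KO and 88.6 CPM in the non-KO morulae (log2 fold change 0.88, adjusted p = 0.243). Counts per gene do not show the deleted part, so these values check neither deletion. Embryos fell apart by Y-linked counts: 6 had at most 2 counts in 4 Y-linked genes and 13 had 1162 or more. The first WT blastocyst stood apart, with 171 CPM of Y-linked RNA and 273 CPM of Xist, against 0.92 to 27.2 CPM of Xist in the other 12 embryos with Y-linked RNA. The 10 trophectoderm markers, all detected, summed to 386 to 4850 CPM in morulae and 5026 to 8180 CPM in blastocysts. The 6 markers of cumulus or granulosa cells summed to at most 0.71 CPM, with Fshr at 0, and the 4 sperm markers to at most 2.01 CPM, with Tnp1 at 0. A whole embryo was measured, so fewer cells of a type and less RNA per cell cannot be told apart. Each replicate is a separate embryo, and the labels do not say from which fertilisation it came.

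All 9 transcripts were detected in all 19 embryos, and they varied to very different degrees. In WT blastocysts Mdh2 had the highest level per length of the members (204 ± 22.8 FPKM, SD, n = 3), followed by Suclg1 (157 ± 36.8), Idh3b (134 ± 13.7) and Idh3a (127 ± 24.9). Pdha1 (49.9 ± 3.20), Cs (44.1 ± 4.77) and Fh1 (42.0 ± 4.66) lay close together, and Ogdh (13.8 ± 0.52) and Dlst (7.83 ± 0.13) were lowest. Without the first WT blastocyst the order of the 9 members was the same, from 217 FPKM for Mdh2 to 7.84 FPKM for Dlst. The ranges of neighbours in this order overlapped over the 3 embryos, except between Idh3a and Pdha1, Fh1 and Ogdh, and Ogdh and Dlst. Across the 19 embryos the highest CPM was 14.9 times the lowest for Idh3a, 7.78 times for Idh3b and 7.21 times for Fh1, but 2.06 times for Cs and 1.97 times for Mdh2. The lowest embryo was the second non-KO morula of the Alyref cross for 6 members (Cs, Idh3a, Ogdh, Dlst, Suclg1 and Fh1).

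**Figure D1:**
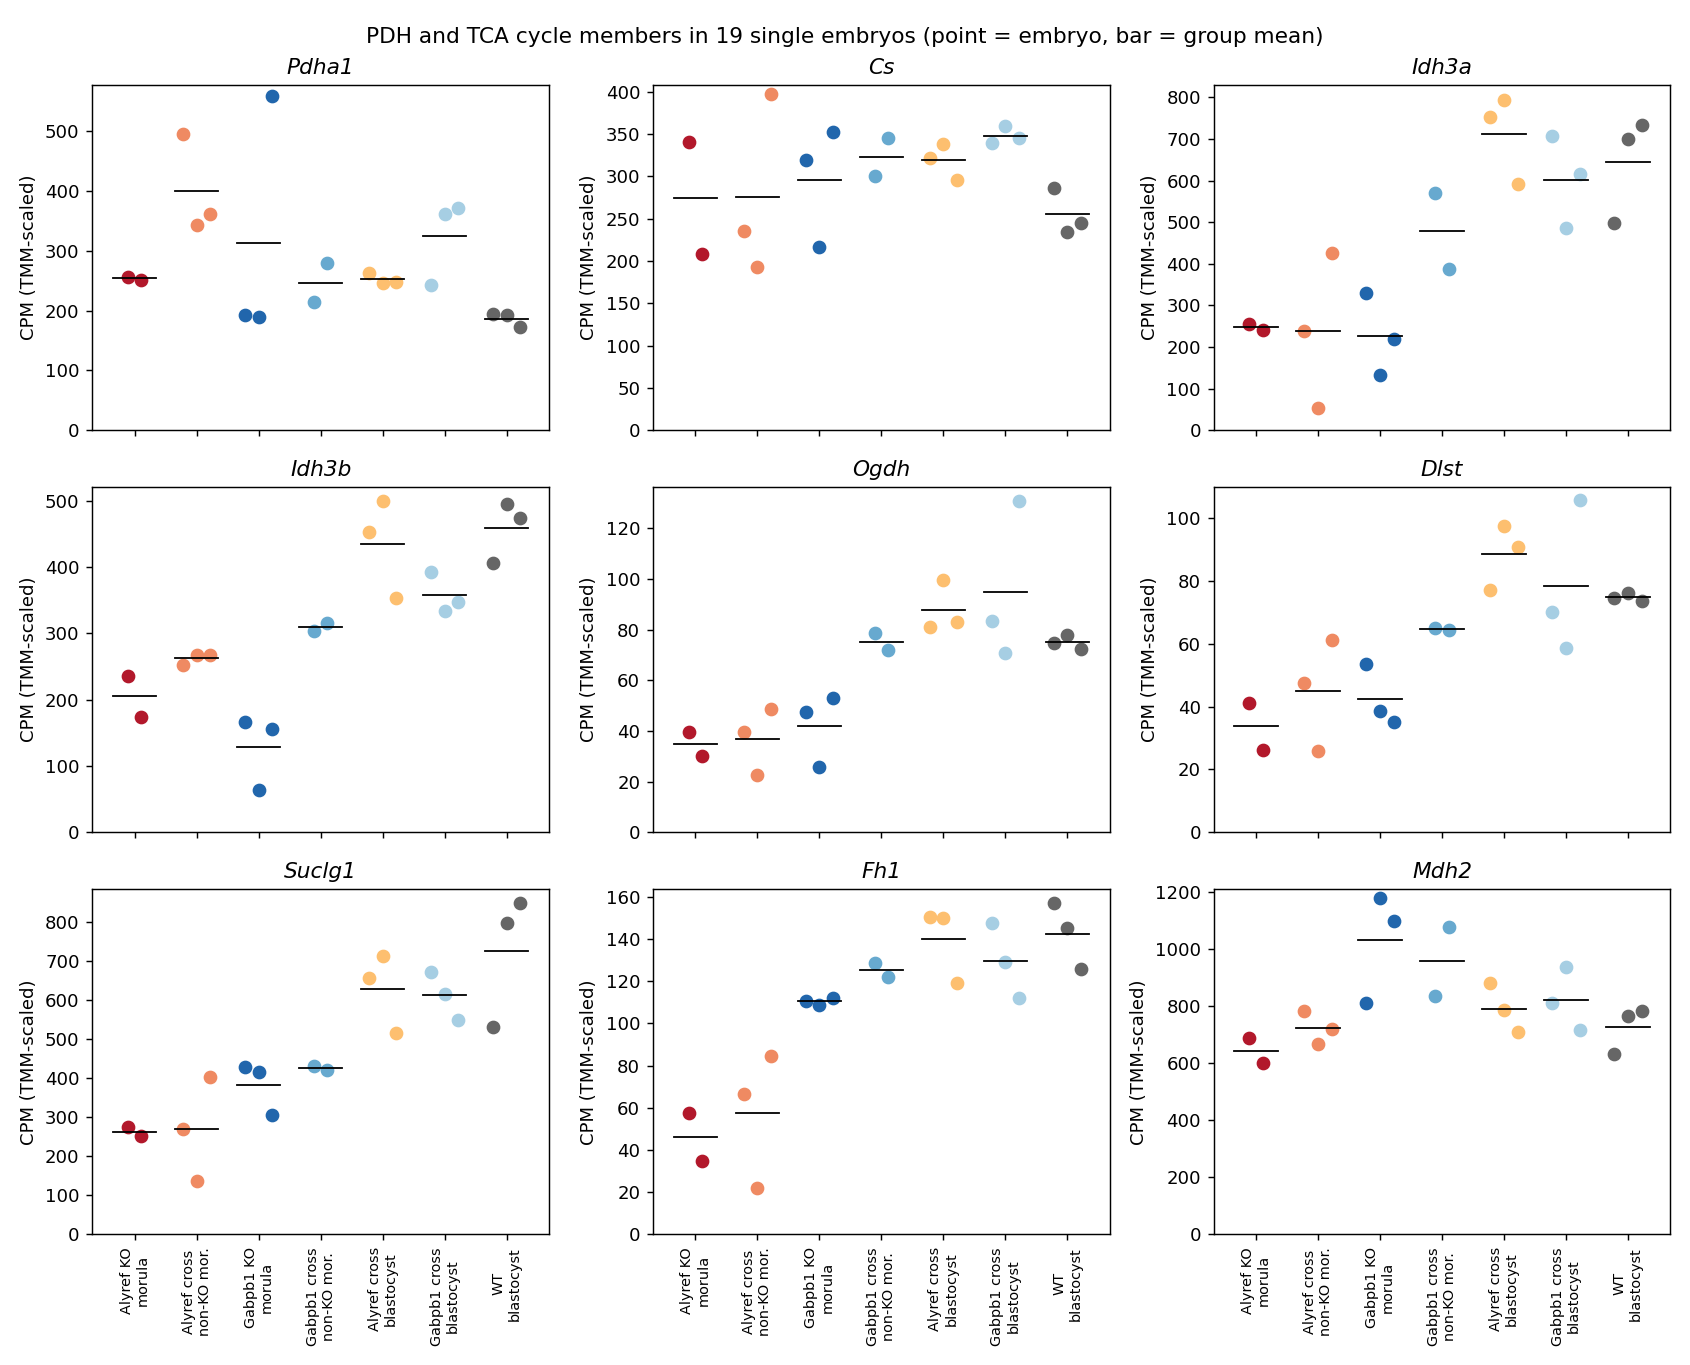
CPM (TMM-scaled, vertical axis from 0) of each of the 9 members in each of the 19 embryos, in 7 groups along the horizontal axis; a point is an embryo and a bar the group mean. Idh3b is lowest in the morulae labelled Gabpb1 KO, and Idh3a, Ogdh, Dlst, Suclg1 and Fh1 are low in the Alyref cross morulae and high in blastocysts, while Cs and Mdh2 vary by about 2.06 and 1.97 times over all embryos.

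The first question was whether loss of Gabpb1 went with altered levels of these genes in morulae. Idh3b fell in morulae labelled Gabpb1 KO, to 0.416 times its level in non-KO morulae of the cross, and was the single member called (adjusted p under 0.05). Of all genes tested, 1.65% were called in this comparison, and 1.3% were called lower (64 genes higher and 239 lower, or 0 and 26 with ERCC scaling). The other 8 members did not pass, with log2 fold changes from -1.07 for Idh3a to 0.35 for Pdha1. The CPM ranges of the groups lay apart for 5 members, each lower in the morulae labelled KO (Idh3a, Idh3b, Ogdh, Dlst and Fh1), where 16.4% of all genes did so in that direction. The median log2 fold change was -0.18 over the members and 0.06 over all genes tested. Scaling by the ERCC spike-in RNA moved the median of all genes to -0.40 and that of the members to -0.64. When known changes were put into simulated counts for this comparison, edgeR found 4.35% of the genes with a log2 change of 1, 49.2% at a log2 change of 2 and 88.2% at 3. The changes were put into 69, 63 and 68 of 18410 genes and no others, so these rates need not hold for the members.

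Idh3b (ENSMUSG00000027406.12, chr2:130279309-130284547, minus strand) encodes the beta subunit of the NAD-dependent isocitrate dehydrogenase, the enzyme that oxidises isocitrate in the cycle. Its CPM was 167, 64.1 and 156 in the 3 morulae labelled Gabpb1 KO, and 304 and 316 in the 2 non-KO morulae. All 3 lay below both. They also lay below the Alyref KO morulae (236 and 175 CPM) and the Alyref cross non-KO morulae (252, 268 and 268 CPM). Against the non-KO morulae of the cross the log2 fold change came to -1.27 (SE 0.29, 95% interval -1.88 to -0.65, edgeR quasi-likelihood test, adjusted p = 0.0443). The direction held in each of the 11 alternatives, with log2 fold changes from -1.51 to -0.96. The call was lost with ERCC scaling (adjusted p = 0.464), with Y-linked RNA as a covariate (adjusted p = 0.062) and with the replicate number as a block (adjusted p = 0.0533). It was also lost without the third morula labelled Gabpb1 KO (adjusted p = 0.0553), without the first non-KO morula (adjusted p = 0.114) and without the second (adjusted p = 0.24). The summed trophectoderm markers moved with this comparison, at 386 to 3152 CPM in morulae labelled Gabpb1 KO and 3192 to 4850 CPM in the non-KO morulae, with 9 of 10 markers lower on average. The 5 epiblast and pluripotency markers summed to 343 to 429 CPM and 188 to 284 CPM. Of these, 4 of 5 were higher on average in the morulae labelled Gabpb1 KO. The 5 primitive endoderm markers summed to 150 to 208 CPM and 120 to 149 CPM, mostly from Gata6 (136 to 188 CPM and 81.3 to 105 CPM). Of these 5, 2 were higher on average in the morulae labelled Gabpb1 KO, Gata6 and Foxa2. Foxa2 was near the floor, with at most 1 count in an embryo (0.031 CPM on average against 0), so its difference carries no weight. Another 3 (Gata4, Sox17 and Pdgfra) lay apart and lower, where 16.4% of all genes did so. The part of these markers in the result was not tested.

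Idh3a (ENSMUSG00000032279.11, chr9:54586334-54604661, plus strand) encodes the catalytic alpha subunit of the same enzyme. It had 330, 132 and 219 CPM in the morulae labelled Gabpb1 KO and 387 and 569 CPM in the non-KO morulae. The groups did not overlap, but the change was not called (log2 fold change -1.07, 95% interval -2.22 to 0.07, adjusted p = 0.295). The gamma subunit Idh3g, which is X-linked, gave 0.16 with an adjusted p of 0.827. Per length, the ratio of Idh3b to Idh3g was 0.164 to 0.341 in the morulae labelled Gabpb1 KO and 0.474 to 0.733 in the non-KO morulae of the cross, and these ranges lay apart. The ratio was 0.695 to 0.958 in WT blastocysts, while the Alyref cross non-KO morulae had 0.302 to 0.513, which overlaps the range of the morulae labelled Gabpb1 KO. Idh3g itself went with Y-linked RNA, as described below, and the part of this in the ratio was not tested.

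Ogdh (ENSMUSG00000020456.17, chr11:6291633-6356642, plus strand) and Dlst (ENSMUSG00000004789.10, chr12:85110833-85134845, plus strand) encode the first and second components of the 2-oxoglutarate dehydrogenase complex, which makes succinyl-CoA. Ogdh had 47.5, 25.8 and 53.1 CPM in the morulae labelled Gabpb1 KO and 78.6 and 72.0 CPM in the non-KO morulae. Every value was lower than both non-KO values, and the log2 fold change was -0.84 (95% interval -1.54 to -0.13, adjusted p = 0.194). An unadjusted p under 0.05 was found for Idh3b and Ogdh, and for 18.9% of all genes. Dlst had 53.6, 38.5 and 35.2 CPM against 65.0 and 64.3 CPM. These groups also lay apart, with a log2 fold change of -0.61 (95% interval -1.30 to 0.08, adjusted p = 0.324). Dlst, which carries the same motif in its promoter window as Idh3b, was not called. The part of the motif in the level of either gene was not tested.

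The remaining members showed less. Fh1 (ENSMUSG00000026526.14, chr1:175600374-175625635, minus strand) encodes fumarase, which hydrates fumarate to malate. It had 111, 109 and 112 CPM in the morulae labelled Gabpb1 KO and 129 and 122 CPM in the non-KO morulae, so that the groups lay apart by a small step (log2 fold change -0.18, 95% interval -0.98 to 0.61). Suclg1 (log2 fold change -0.15) and Cs (-0.13) overlapped between the groups. Mdh2 (0.11) and Pdha1 (0.35) overlapped too, and their log2 fold changes were -0.48 and -0.19 with ERCC scaling. Pdha1 was 193, 188 and 558 CPM in the morulae labelled Gabpb1 KO, and without the third of these its log2 fold change turned to -0.39.

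In Alyref KO morulae 0 of 9 members were called, and 0 had an unadjusted p under 0.05, in edgeR's test, while 0.228% of all genes were called and 12.1% had such a p. DESeq2 also called 0 members. Log2 fold changes ran from -0.66 to 0.05, with a median of -0.17 against -0.04 over all genes. The groups lay apart for 2 members, both lower, where 12.3% of all genes did so in that direction. Pdha1 had 256 and 252 CPM in the KO morulae and 495, 344 and 361 CPM in the non-KO morulae (log2 fold change -0.66, 95% interval -1.45 to 0.14, adjusted p = 0.52). With Y-linked RNA as a covariate this log2 fold change was -0.21. The epiblast and pluripotency markers summed to 603 to 649 CPM in the KO morulae and 526 to 567 CPM in the non-KO morulae. Of the 5 markers 1 was higher on average in the KO morulae, Nanog (495 CPM against 340 CPM). The others, such as Pou5f1 (68.8 CPM against 114 CPM), were lower on average. The part of these markers was not tested. Idh3b gave -0.36 (95% interval -0.99 to 0.27, adjusted p = 0.694). For Cs, Ogdh and Suclg1 the log2 fold changes were -0.01, -0.09 and -0.03, and 2 or more of the alternatives turned the sign of each.

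A direct test compared the 2 KO effects (effect in the Gabpb1 cross minus effect in the Alyref cross). It was called for 0 of 9 members, against 0.907% of all genes (66 higher and 101 lower, or 0 and 10 with ERCC scaling), and DESeq2 also called 0. Idh3b had a difference of -0.91 (95% interval -1.79 to -0.03, adjusted p = 0.278), the single member with an unadjusted p under 0.05, which 16.8% of all genes had. The fall of Idh3b was therefore not shown to differ between the crosses.

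**Figure D2:**
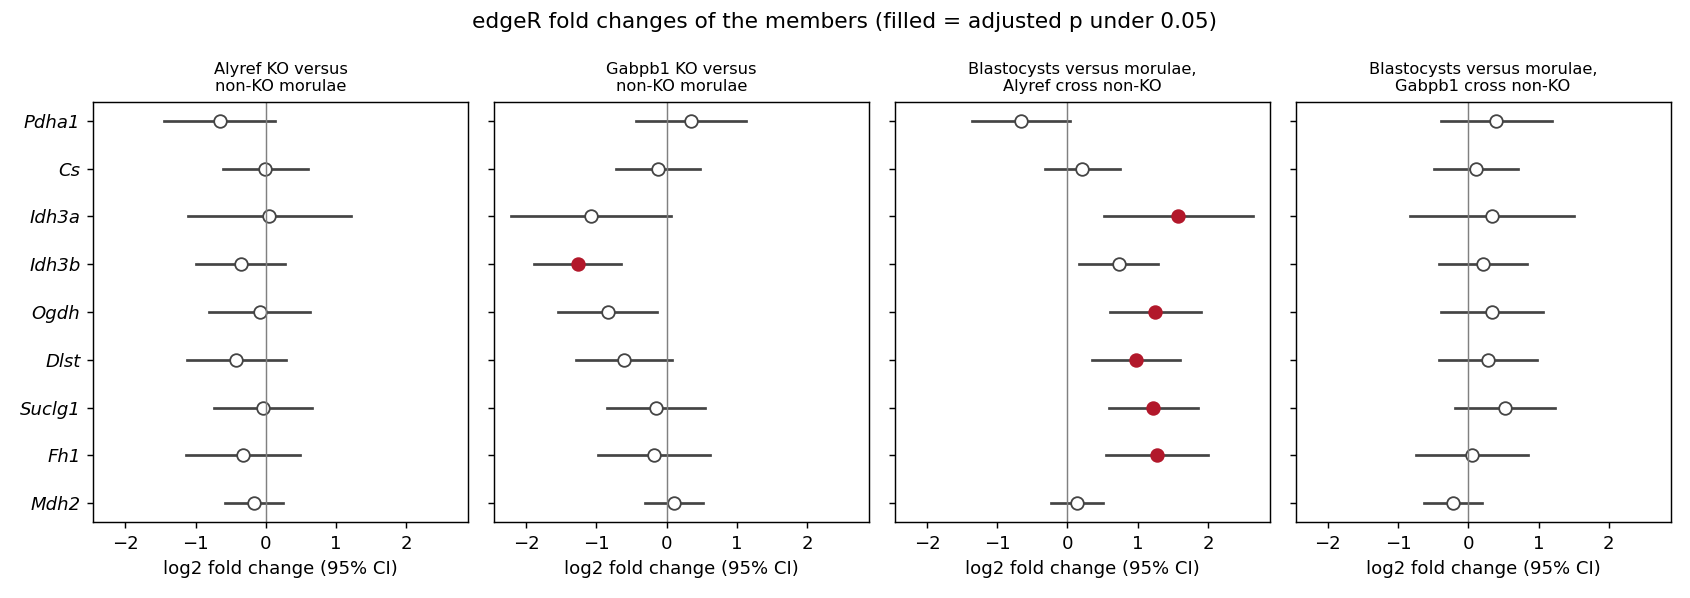
Log2 fold change of each member (horizontal axis) with its 95% interval in 4 comparisons; filled points have an adjusted p under 0.05. Idh3b at -1.27 is the filled point of the Gabpb1 KO comparison, 5 members are filled and above 0 between the stages of the Alyref cross, and none is filled in the Alyref KO comparison or between the stages of the Gabpb1 cross; with ERCC scaling 0 of these points pass, and the points above 0 between the stages of the Gabpb1 cross turn below 0.

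The second question was how the genes differed between non-KO blastocysts and non-KO morulae of the same age. In the Alyref cross 5 of 9 members rose in blastocysts: Idh3a, Ogdh, Dlst, Suclg1 and Fh1, by 1.97 to 2.98 times. Of all genes tested 13% were called, and 5.62% were called higher (1035 genes higher and 1367 lower, or 31 and 321 with ERCC scaling). The groups lay apart for 6 members with blastocysts higher (these 5 and Idh3b), where 19.6% of all genes did so, and for Pdha1 with blastocysts lower, where 19.2% did so. The median log2 fold change was 0.98 over the members and -0.04 over all genes. With ERCC scaling the members' median was 0.51, that of all genes -0.34, and Cs and Mdh2 turned to -0.25 and -0.20.

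Suclg1 (ENSMUSG00000052738.14, chr6:73248382-73276911, plus strand) encodes the alpha subunit of succinyl-CoA ligase, which pairs with the beta subunit Sucla2 or Suclg2. It had 657, 713 and 515 CPM in the blastocysts and 269, 136 and 403 CPM in the morulae. All 3 blastocysts were higher than all 3 morulae, by 1.22 on the log2 scale (SE 0.30, adjusted p = 0.0192). Suclg2, the subunit of the GTP-forming enzyme, also rose (log2 fold change 0.66, adjusted p = 0.0326), and Sucla2, that of the ATP-forming enzyme, gave 0.10 (adjusted p = 0.809). Per length, the ratio of Sucla2 to Suclg2 was 3.13 to 3.53 in these blastocysts and 3.97 to 6.05 in the morulae.

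Fh1 had 150, 150 and 119 CPM in the blastocysts and 66.5, 21.8 and 84.8 CPM in the morulae (log2 fold change 1.28, SE 0.34, adjusted p = 0.0266). Ogdh had 81.0, 99.5 and 83.1 CPM against 39.5, 22.6 and 48.8 CPM (log2 fold change 1.25, SE 0.31, adjusted p = 0.0197). Dlst had 77.3, 97.5 and 90.8 CPM against 47.5, 25.9 and 61.3 CPM (log2 fold change 0.98, SE 0.29, adjusted p = 0.0409). In each of these genes every blastocyst was above every morula, and the second morula was the lowest. Idh3a had 752, 793 and 591 CPM in the blastocysts and 238, 53.3 and 425 CPM in the morulae (log2 fold change 1.58, SE 0.50, adjusted p = 0.0487). The 53.3 CPM of the second morula was the lowest Idh3a level of any embryo. Idh3b gave 0.73 (95% interval 0.17 to 1.29, adjusted p = 0.0763), with 454, 499 and 353 CPM against 252, 268 and 268 CPM.

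These calls were easily lost. The number of members called was 0 with ERCC scaling and 3 with Y-linked RNA as a covariate. Leaving out a non-KO morula gave 0 without the first, 1 without the second and 5 without the third. Leaving out a blastocyst gave 0 without the first, 0 without the second and 3 without the third. The log2 fold changes of the 5 called members stayed above 0 throughout, from 0.51 to 2.29. The summed trophectoderm markers were 5026 to 8180 CPM in the blastocysts and 658 to 2321 CPM in the morulae, with 9 of 10 markers higher on average. The epiblast and pluripotency markers summed to 164 to 209 CPM in the blastocysts and 526 to 567 CPM in the morulae, with 0 of 5 higher on average in blastocysts. The part of both lists in these differences was not tested.

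In the Gabpb1 cross 0 of 9 members differed between blastocysts and morulae by edgeR's test, 0 had an unadjusted p under 0.05, and 0 were called by DESeq2. Of all genes, 0% were called and 6.72% had an unadjusted p under 0.05. The log2 fold changes ran from -0.22 for Mdh2 to 0.52 for Suclg1 with a median of 0.28 (0.02 over all genes), and with ERCC scaling the 8 above 0 turned below 0, at a median of -0.66 for the members and -0.86 for all genes. Suclg1 had 673, 616 and 548 CPM in blastocysts and 431 and 421 CPM in morulae. The groups lay apart for Suclg1 and Idh3b, both higher in blastocysts, where 11.4% of all genes did so. Fh1 was already at 129 and 122 CPM in the morulae, against 148, 129 and 112 CPM in the blastocysts. The trophectoderm markers summed to 5085 to 5947 CPM in the blastocysts and 3192 to 4850 CPM in the morulae, with 8 of 10 higher on average. The epiblast and pluripotency markers summed to 273 to 344 CPM and 188 to 284 CPM, with 5 of 5 higher on average in blastocysts. The part of both lists was not tested. The difference in stage effect between the crosses, a test added after the data were seen, was called for 0 of 9 members (lowest adjusted p 0.314, for Fh1) and for 0.00543% of all genes. Unadjusted p-values were under 0.05 for Fh1 and Pdha1, and for 13.8% of all genes.

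The non-KO morulae of the crosses were then set against each other. This comparison shares its groups with those above, and cross and fertilisation cannot be told apart. Of the 9 members 0 were called, against 1.86% of all genes (218 higher and 124 lower, or 2 and 0 with ERCC scaling). DESeq2 called 2 members (Ogdh and Fh1) among 1709 genes. Gabpb1 cross morulae were higher for 8 members, with groups that lay apart for 6 (Idh3b, Ogdh, Dlst, Suclg1, Fh1 and Mdh2), where 17.9% of all genes did so. Pdha1 lay apart and lower, as 18.2% of all genes did. The log2 fold change was 1.03 for Ogdh (95% interval 0.32 to 1.73, adjusted p = 0.102) and 1.12 for Fh1 (95% interval 0.33 to 1.91, adjusted p = 0.107). The median was 0.53 over the members and -0.03 over all genes, and 0.82 and 0.39 with ERCC scaling. Without the third Alyref cross morula 4 members were called, among 2435 genes, against 342 genes with all embryos. The summed trophectoderm markers were 3192 to 4850 CPM in the Gabpb1 cross morulae, above the 658 to 2321 CPM of the Alyref cross morulae. The epiblast and pluripotency markers went the other way, at 188 to 284 CPM and 526 to 567 CPM, and the part of both lists was not tested.

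Non-KO blastocysts of both heterozygous crosses together did not differ from WT blastocysts in any member by edgeR's test (0 of 9, with 0% of all genes called and 4.55% at an unadjusted p under 0.05), and DESeq2 called 0 members. Cs (ENSMUSG00000005683.8, chr10:128337734-128362479, plus strand) encodes citrate synthase, which joins acetyl-CoA to oxaloacetate at the entry of the cycle. It had 286, 235 and 244 CPM in the WT blastocysts, below the 6 blastocysts of the crosses at 296 to 360 CPM (log2 fold change 0.39, 95% interval -0.09 to 0.86, adjusted p = 1). Pdha1 had 194, 193 and 173 CPM in the WT blastocysts and 242 to 371 CPM in the other 6 (log2 fold change 0.62, 95% interval 0.0004 to 1.24, adjusted p = 1). The groups lay apart for these 2 members, where 1.87% of all genes lay apart in that direction. Without the first WT blastocyst the log2 fold changes were 0.48 for Cs and 0.65 for Pdha1, and with Y-linked RNA as a covariate that of Pdha1 was 0.39. The primitive endoderm markers summed to 223 to 271 CPM in the WT blastocysts, above the 124 to 171 CPM of the Alyref cross and the 138 to 212 CPM of the Gabpb1 cross, and their part was not tested.

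Pdha1 (ENSMUSG00000031299.10, chrX:160122209-160138413, minus strand) encodes the alpha subunit of the first PDH component, whose phosphorylation switches the complex off. Its levels went with Y-linked RNA. The 6 embryos with at most 2 Y-linked counts had 279 to 558 CPM (median 366), and the 13 with Y-linked RNA had 173 to 344 CPM (median 242). The first kind was higher in 4 of the 4 groups that held both. Each of these groups held few embryos, and the share of all genes that split this way was not counted. In the Gabpb1 cross blastocysts, for example, the embryo with Y-linked RNA had 242 CPM and the others 362 and 371 CPM. Both Alyref KO morulae and all 3 Alyref cross blastocysts had Y-linked RNA, but 1 of the 3 Alyref cross non-KO morulae did, so this difference moved with those comparisons. With the covariate the log2 fold change of Pdha1 between the stages of the Alyref cross went from -0.66 to -0.16. Pdhb, the autosomal beta subunit, gave -0.50 there (adjusted p = 0.104).

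Idh3g, the X-linked partner of Idh3a and Idh3b, showed the same split, with 527 to 750 CPM in the 6 embryos and 181 to 461 CPM in the 13. Alyref KO morulae had the lowest values, 218 and 181 CPM, against 633, 411 and 701 CPM in the non-KO morulae (log2 fold change -1.54, adjusted p = 0.0895). The 411 CPM belongs to the non-KO morula with Y-linked RNA, and it lies above both KO values. The change was not called and rests on few embryos. The part of the split by Y-linked RNA in it was not tested. Of the autosomal members Cs was also higher in the embryos with at most 2 Y-linked counts in 4 of 4 groups, by less (medians 349 and 296 CPM). The other 7 members were not. Without the share of all genes that did so, this cannot be read as a trait of Cs.

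**Figure D3:**
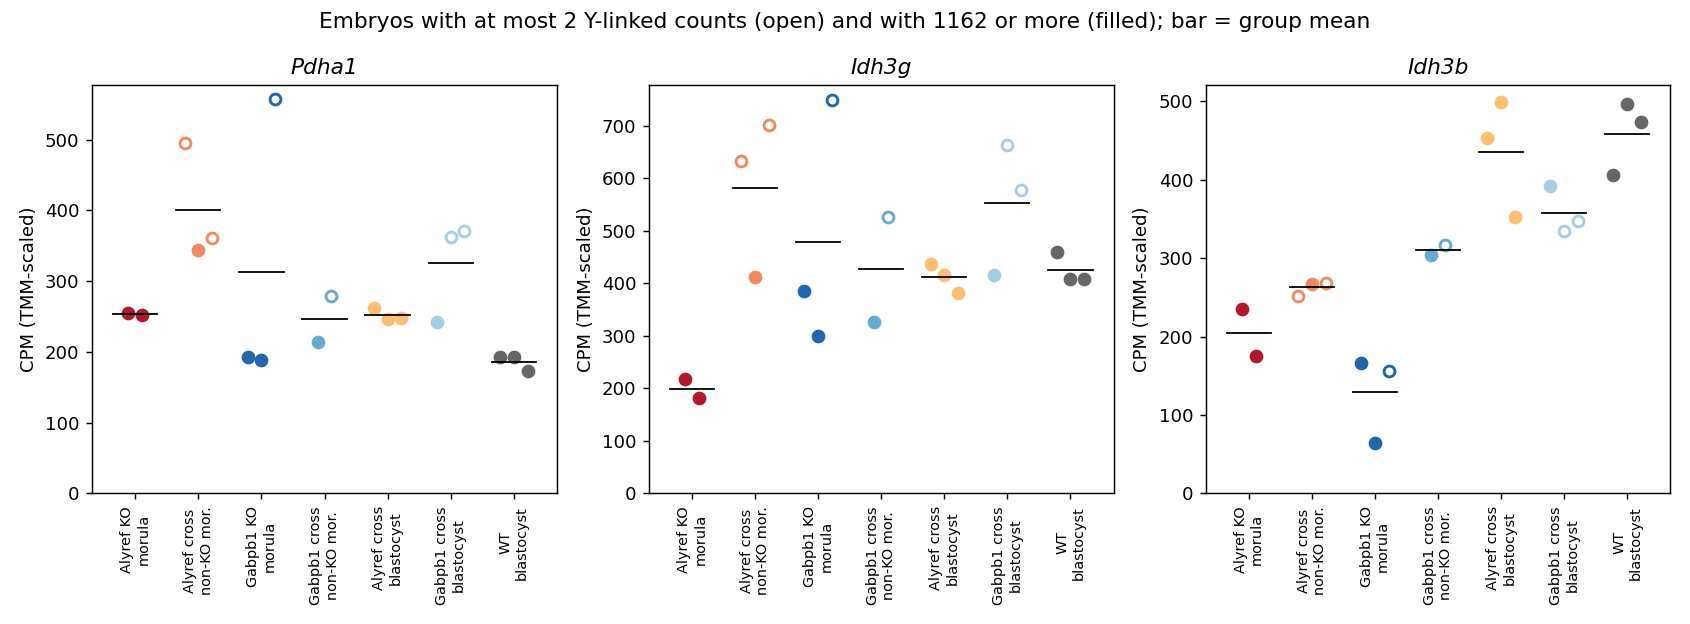
CPM (vertical axis from 0) of the X-linked Pdha1 and Idh3g and the autosomal Idh3b in each embryo by group; open points are embryos with at most 2 Y-linked counts, filled points those with 1162 or more, and bars group means. Open points lie above the filled points of their own group for Pdha1 and Idh3g, and the 3 Idh3b values of the morulae labelled Gabpb1 KO lie below those of both non-KO morulae in open and filled points alike.

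Mdh2 (ENSMUSG00000019179.10, chr5:135778480-135790398, plus strand) encodes the mitochondrial malate dehydrogenase that closes the cycle. It varied least of the members. Its group means ran from 644 ± 61.9 CPM (SD, n = 2) in Alyref KO morulae to 1031 ± 194 CPM (SD, n = 3) in morulae labelled Gabpb1 KO. Each neighbour in that order overlapped the next. Cs was similar, from 255 ± 27.5 CPM (SD, n = 3) in WT blastocysts to 348 ± 10.5 CPM (SD, n = 3) in Gabpb1 cross blastocysts, again with overlap between all neighbours. For Idh3b the order of group means was WT blastocysts (458 CPM), Alyref cross blastocysts (435), Gabpb1 cross blastocysts (358), Gabpb1 cross non-KO morulae (310), Alyref cross non-KO morulae (263), Alyref KO morulae (205) and morulae labelled Gabpb1 KO (129). The Alyref cross blastocysts overlapped both other blastocyst groups. The WT blastocysts (406 to 496 CPM) lay above the Gabpb1 cross blastocysts (334 to 392 CPM). From the Gabpb1 cross blastocysts downward each group lay apart from the next. The share of all genes with such a run of steps was not counted.

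**Figure D4:**
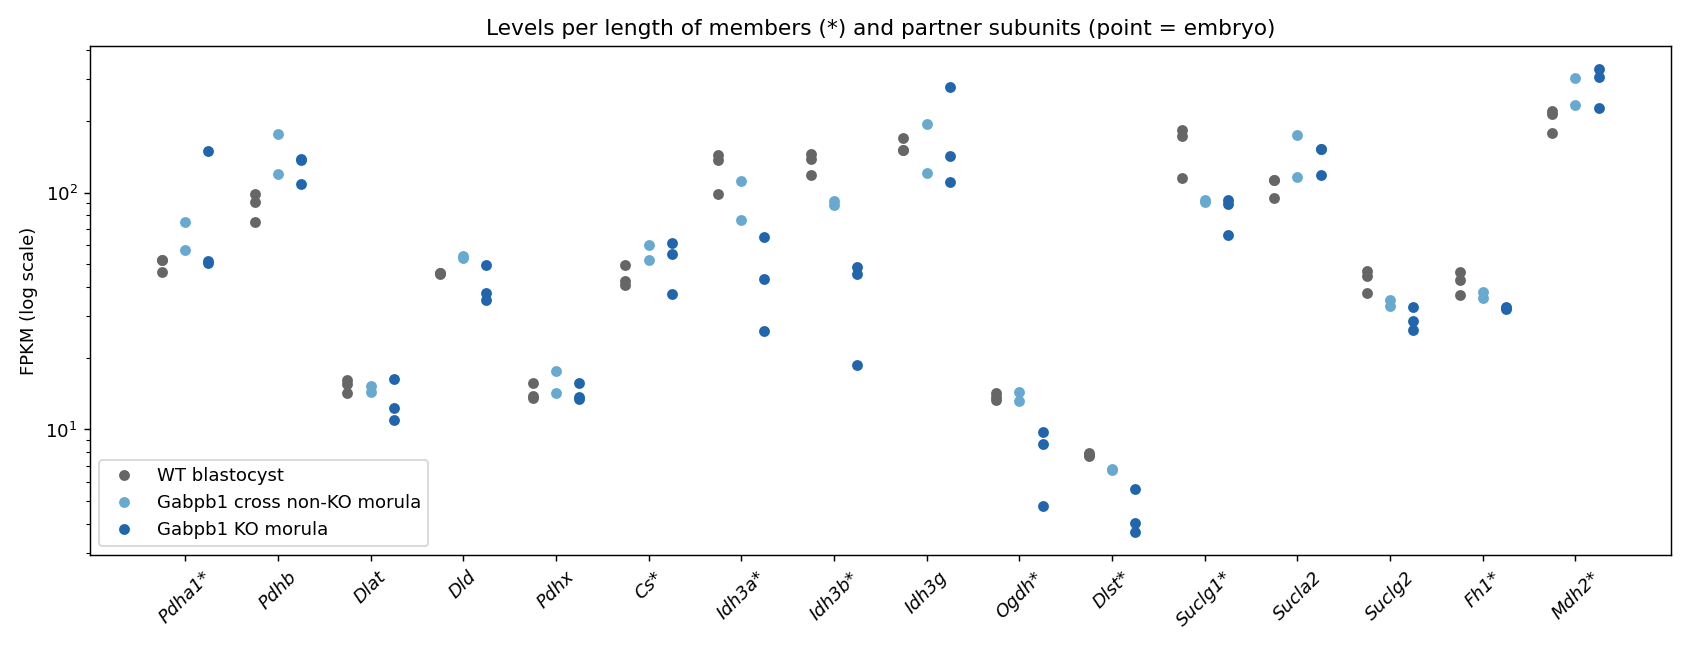
FPKM (vertical axis, log scale) of the members (marked with a star) and of partner subunits in WT blastocysts, Gabpb1 cross non-KO morulae and morulae labelled Gabpb1 KO; a point is an embryo. Mdh2 is highest and Dlst lowest in WT blastocysts, at 204 and 7.83 FPKM on average, and the morulae labelled Gabpb1 KO lie below both other groups for 5 members, Idh3a, Idh3b, Ogdh, Dlst and Fh1.

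The rest of the pathway was followed in a list of 38 genes, of which 34 were tested. It held the other PDH subunits, PDH kinases and phosphatases, pyruvate entry, lipoylation, the other TCA cycle enzymes, cytosolic counterparts and shuttles. In morulae labelled Gabpb1 KO 1 of 34 rose and 0 fell, while 0.348% of all genes rose and 1.3% fell. This was Acly, the cytosolic enzyme that splits citrate into acetyl-CoA and oxaloacetate, with 62.1 to 84.3 CPM against 29.7 and 31.7 CPM (log2 fold change 1.20, adjusted p = 0.045). Acly averaged 70.8 CPM in the morulae labelled Gabpb1 KO, and 56.1, 68.4 and 65.9 CPM in Alyref cross, Gabpb1 cross and WT blastocysts. In Alyref KO and Alyref cross non-KO morulae it averaged 30.3 and 45.6 CPM. In 11 alternatives, added for the pathway list after the data were seen, its log2 fold change stayed above 0 (0.74 to 1.28) and the call was lost in 8, among them ERCC scaling (adjusted p = 0.76), the replicate block (adjusted p = 0.0657) and leaving out either non-KO morula (adjusted p = 0.146 and 0.297). It was also the single gene of the list called in the difference between KO effects (log2 difference 1.80, adjusted p = 0.0412), where 0.359% of all genes were called higher. That call was lost in 12 of 16 alternatives, with an adjusted p of 0.964 under ERCC scaling and 0.0827 with the replicate block. The list's median log2 fold change was -0.16 in the Gabpb1 KO comparison, against 0.06 over all genes. The subunits of the PDH complex other than Pdha1 gave -0.39 (Dld) to -0.16 (Pdhx and Dlat), with -0.20 for Pdhb. In Alyref KO morulae 0 of 34 were called and 5 had an unadjusted p under 0.05, Idh3g among them, as 12.1% of all genes did. DESeq2 called 1 of the 34 there.

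Between the stages of the Alyref cross 6 of the 34 rose in blastocysts and 3 fell, while 5.62% of all genes rose and 7.43% fell. The median log2 fold change was 0.47, against -0.04 over all genes. With ERCC scaling 0 rose and 0 fell, with the Y-linked covariate 3 rose and 1 fell, and leaving out 1 embryo gave 1 to 11 that rose and 0 to 5 that fell. Without the first or the second morula, or the first or the second blastocyst, 1 rose in each case, and without the third morula 11 did. The number of all genes called moved with the same embryos, as given above. Those that rose were the cytosolic malate dehydrogenase Mdh1 (1.67, adjusted p = 0.00812), the oxoglutarate carrier Slc25a11 (1.36, adjusted p = 0.0188), Sdhd (1.36, adjusted p = 0.0249), Sdha (1.04, adjusted p = 0.0296), the cytosolic aspartate aminotransferase Got1 (0.79, adjusted p = 0.0308) and Suclg2. Mdh1, Got1 and Slc25a11 belong to the malate-aspartate shuttle, and Sdha and Sdhd to succinate dehydrogenase. The other genes of this shuttle and of this enzyme on the list were not called, nor was the member Mdh2 (log2 fold change 0.13). Those that fell were the lipoyl synthase Lias (log2 fold change -1.26, adjusted p = 0.0188), the pyruvate carrier subunit Mpc1 (-0.96, adjusted p = 0.0459) and the PDH phosphatase Pdp2 (-1.24, adjusted p = 0.0473). The call of Mdh1 held in 11 of 12 alternatives, and those of Mpc1 and Pdp2 in 3 each. Mpc1 and Pdp2 are named after their values were seen. In the Gabpb1 cross, 0 of 34 were called between the stages by edgeR (5 with an unadjusted p under 0.05, 1 called by DESeq2). In the comparison of non-KO morulae 0 of 34 were called (8 with an unadjusted p under 0.05, which 22.4% of all genes had, and 2 called by DESeq2), and in that with WT blastocysts 0 (1 with such a p, 0 by DESeq2).

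The gene whose profile over the 19 embryos was nearest to each member's was found by the root mean square (RMS) difference of centred log2 CPM among 18401 genes, as a description with no test. For Pdha1 it was Eif2s3x, also X-linked (0.18), for Suclg1 Hint2 (0.18) and for Mdh2 BC003331 (0.16). For Ogdh it was Ilkap (0.19), for Idh3a Smagp (0.21), for Dlst Ryk (0.21), for Idh3b 6030458C11Rik (0.26) and for Fh1 Rsrc1 (0.28). For Cs it was Csl (0.19), a copy of Cs that shares 6.04% of its 50-base words with Cs. The counts of Csl were 0.73% to 1.38% of those of Cs in each embryo, and how the counting treated reads that match both is not given in the sources used here.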

How the data were processed

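PolyA RNA of 19 single embryos was measured after 16 PCR cycles, with ERCC RNA added, per the labels. The authors deposited raw read counts per gene with a merged exon length, although the table announces FPKM. Per the submitters' processing notes, Trimmomatic, Trim Galore, cutadapt, STAR, featureCounts and mm10 were used. Versions, strand and multi-mapping settings are not given in the sources used here. FPKM was computed from counts and length. Genes with an FPKM of 1 or more in at least 2 embryos were tested (18410 of 39262 with any count). With TMM scaling and 1 mean for each of 7 groups, genes were tested by the quasi-likelihood F test of edgeR (version 4.0.16, in R 4.3.3). All p-values named adjusted are Benjamini-Hochberg over the genes tested, and a gene is called under 0.05. Intervals are 95%. Alternatives were RLE scaling, ERCC scaling, DESeq2 1.42.0, no filter, the replicate number as a block, summed Y-linked RNA as a covariate and leaving out each embryo. The script was tested on simulated data. Amplified counts carry no molecular identifiers, so intervals do not count independent molecules.

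The members and lists were chosen with earlier results of these data known. The text names all members, their partner subunits, at most the 6 pathway genes with the smallest adjusted p among those called in a comparison (2 more, Mpc1 and Pdp2, were named after their values were seen), the targeted genes and each member's nearest profile, and 1 gene of the pathway list is counted but not reported here by name. Same-numbered embryos were not paired: over 9 pairs of samples the correlations of deviations ran from -0.13 to 0.15, with 3 over 0.1.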

Additional observations from a re-analysis of the deposited data

How the results depend on the processing

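Each member had 258 counts or more in every embryo. Groups held 2 or 3 embryos, and where leaving out an embryo left a group with 1, that embryo was assumed to vary like those of the other groups. RLE scaling, DESeq2 and testing without a filter on low values kept the call and direction of Idh3b in the Gabpb1 KO comparison and of the 5 members called between the stages of the Alyref cross. Over all alternatives the members' called values kept their call in 37 cases and lost it in 34, and 0 changed sign. Changes of sign occurred in 52 cases, all in member values that were not called, and the cause was not tested.

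The number of genes called depended on the tool. With DESeq2 it was 502 for Alyref KO, 1284 for Gabpb1 KO, 894 for the difference of KO effects, 3762 between stages in the Alyref cross, 57 between stages in the Gabpb1 cross, 1709 between non-KO morulae (2 of them members) and 33 against WT blastocysts. With edgeR it was 42, 303, 167, 2402, 0, 342 and 0. With ERCC scaling it was 0, 26, 10, 352, 0, 2 and 0, and 0 members were called in the Gabpb1 KO comparison and between stages in the Alyref cross. Without a filter it was 13 for Alyref KO and 8 against WT blastocysts. With the Y-linked covariate it was 1 for Alyref KO, 178 for Gabpb1 KO and 3 between stages in the Gabpb1 cross, while 0 members were called for Gabpb1 KO and 3 between stages in the Alyref cross. With the replicate block, for numbers that did not pair the samples (0 of 6 Alyref cross non-KO samples correlated best with their own number), it was 8 for Alyref KO, and 0 members were called for Gabpb1 KO. The block changed no other count of members called.

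Signs turned with ERCC scaling for Idh3a in Alyref KO (-0.30) and for Pdha1 (-0.19) and Mdh2 (-0.48) in the Gabpb1 KO comparison. They turned for Fh1 (-0.065) and Mdh2 (-0.26) in the difference of KO effects and for Cs (-0.25) and Mdh2 (-0.20) between stages in the Alyref cross. Between stages in the Gabpb1 cross they turned for Pdha1 (-0.55), Cs (-0.78), Idh3a (-0.53), Idh3b (-0.66), Ogdh (-0.61), Dlst (-0.67), Suclg1 (-0.33) and Fh1 (-0.80), and against WT blastocysts for Fh1 (0.00035). In Alyref KO, Cs turned to 0.0080 with RLE scaling, 0.0076 with DESeq2, 0.080 with the replicate block and 0.24 with the Y-linked covariate. Ogdh turned to 0.075 with the block and 0.23 with the covariate, and Suclg1 to 0.0083 and 0.031. With the covariate Fh1 turned to -0.026 in the difference of KO effects and Idh3a to -0.040 against WT blastocysts.

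Leaving out each embryo in turn gave 0 to 128 genes called for Alyref KO, 48 to 966 for Gabpb1 KO and 16 to 707 for the difference of KO effects. It gave 346 to 4560 between stages in the Alyref cross, 0 to 6 in the Gabpb1 cross, 0 to 2435 between non-KO morulae and 0 to 3 against WT blastocysts. Members called ranged from 0 to 1 for Gabpb1 KO, 0 to 5 between stages in the Alyref cross and 0 to 4 between non-KO morulae. Members whose sign turned ranged as follows. In Alyref KO, Cs ran from -0.41 to 0.36, Ogdh from -0.33 to 0.16, Suclg1 from -0.34 to 0.38, Idh3a from -0.41 to 0.76 and Fh1 from -0.73 to 0.061. For Gabpb1 KO, Cs ran from -0.29 to 0.045, Mdh2 from -0.066 to 0.30 and Pdha1 from -0.39 to 0.60. In the difference of KO effects, Cs ran from -0.48 to 0.27, Dlst from -0.48 to 0.16, Fh1 from -0.24 to 0.54 and Suclg1 from -0.53 to 0.14. Between stages in the Gabpb1 cross, Fh1 ran from -0.056 to 0.14 and Dlst from -0.0037 to 0.44. Against WT blastocysts Idh3a ran from -0.13 to 0.13.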

Other observations

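Pdha2, the testis copy of Pdha1, was at 0 counts in 6 of 7 groups and reached 0.47 CPM in a single Alyref cross blastocyst. Ogdhl, a relative of Ogdh, lay between 2.38 and 20.2 CPM. Dhtkd1, which oxidises 2-oxoadipate and is related to Ogdh, had 38.1 and 59.1 CPM in Alyref KO morulae, 2.44 to 26.1 CPM in Alyref cross non-KO morulae and 3.62 to 56.4 CPM in morulae labelled Gabpb1 KO. In the other 4 groups it lay at or under 7.10 CPM. Of the pathway list, Pcx, Pdk1, Pdk4 and Pdp1 did not pass the filter on low values, and their highest levels were 3.70, 6.53, 3.19 and 5.54 CPM.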
